A study of Homo sapiens with 4 samples.

Results

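The 10 genes described here encode the subunits of the transcription factor AP-1 and 3 other proteins that are made within minutes of a growth or stress signal. They were chosen by name, as FOS, FOSB, FOSL1, FOSL2, JUN, JUNB, JUND, EGR1, ATF3 and IER3, and each of them was 1 row of the 58174 rows with a gene identifier in the expression table. RNA was measured in 2 human pancreatic cancer cell lines, SW1990 and PANC-1, each left unirradiated or given 10 Gy of X-rays. The aim was to learn what dying irradiated cells pass on to surviving tumor cells. SW1990 was grown in 1640 medium and PANC-1 in DMEM, both with serum, so the line and its medium cannot be told apart. Each of the 4 conditions was 1 library, and the time between radiation and RNA collection is not given in the sources used here.

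Summed over all rows, the libraries held 17939210 counts for unirradiated and 18388969 for irradiated SW1990, and 23451153 for unirradiated and 20154644 for irradiated PANC-1. With 1 library per condition, a difference between an irradiated and an unirradiated library has no replicate check, and the intervals given with it are exact 95% intervals that cover counting error only. The epithelial keratins KRT8, KRT18 and KRT19 were abundant in both lines, with KRT8 at 1352, 1888, 786 and 851 FPKM in unirradiated SW1990, irradiated SW1990, unirradiated PANC-1 and irradiated PANC-1. EPCAM, a surface protein of epithelial cells, was at 7348 and 7552 counts in the SW1990 libraries and at 108 and 113 in the PANC-1 libraries, so the epithelial label rested on keratins in PANC-1. KRT7 was checked as well and had at least 1 FPKM in a library of each line. In the comparison of the lines described below, 3 of these 5 epithelial genes passed as lower in PANC-1 and 0 as higher, against 21.4% and 22.2% of all genes. The leukocyte gene PTPRC and the endothelial gene PECAM1 were both at 0, 2, 0 and 0 counts, and the collagen gene COL3A1 was at 0, 0, 80 and 77. COL1A1 was the most abundant of these 4 genes of other cells, with 103, 165, 965 and 1315 counts, and the part of the collagen genes in the differences between the lines was not tested.

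AP-1 is a dimer. A JUN protein pairs through a leucine zipper with another JUN protein, with a FOS protein or with an ATF protein, and the pair binds DNA through the basic region next to the zipper. FOS and JUN dimers prefer the site TGAGTCA, whereas dimers with ATF proteins prefer TGACGTCA, the site also used by CREB. Several of the genes, FOS and EGR1 among them, are classic immediate-early genes. Growth factors and stress switch these on through kinases acting on proteins that already sit at their promoters, and their mRNAs are short-lived. In carcinoma cells, FOSL1 and JUN are known for their part in invasion and mesenchymal traits, and ionizing radiation is among the stresses known to induce EGR1, JUN and ATF3.

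A few short pieces of promoter sequence are shown, chosen for their sites for SRF, AP-1 and ATF dimers. All come from RefSeq promoters on GRCh38.p14, which run from 250 bases before the transcription start to 50 bases after it. 8 of the 10 genes had such an entry, FOSL1 and IER3 being without, and ATF3 had a pair of them. The letters TGAGTCA, TGACGTCA, TGACATCA and GCGTGGGCG, the last being the site of EGR1 itself, and the CArG box, bound by the serum response factor SRF, were searched on both strands. The upstream part of EGR1, at chr5:138465229-138465478 on the + strand, is shown whole because this gene had the largest range of log2 scaled counts over the 4 libraries, with its 2 CArG boxes in capitals:
EGR1: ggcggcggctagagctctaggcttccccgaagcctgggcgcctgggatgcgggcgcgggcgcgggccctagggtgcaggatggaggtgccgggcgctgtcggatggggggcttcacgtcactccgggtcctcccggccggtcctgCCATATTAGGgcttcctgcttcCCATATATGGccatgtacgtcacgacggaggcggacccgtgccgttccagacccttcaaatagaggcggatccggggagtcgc
The CArG boxes begin at positions -105 and -83 from the transcription start, and 1.293% of the 35116 RefSeq promoters hold such a box. The other 4 pieces, each of 30 bases and read 5′ to 3′ along the gene's strand, are shown because they carry a site for AP-1 or for a dimer with ATF proteins, in capitals:
JUN: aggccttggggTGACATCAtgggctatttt
ATF3: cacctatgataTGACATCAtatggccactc
JUND: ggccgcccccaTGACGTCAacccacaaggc
FOSL2: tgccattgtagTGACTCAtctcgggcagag
The JUN piece lies at chr1:58784096-58784125 on the - strand, inside the only exon that GENCODE 29 gives for JUN, and the ATF3 piece at chr1:212565273-212565302 on the + strand, before its first promoter's start. Both hold TGACATCA, the known variant site of the JUN promoter, which begins at position -67 in JUN and -123 in ATF3 and occurs in 2.614% of all promoters. JUND, at chr19:18281804-18281833 on the - strand, holds TGACGTCA from position -200, found in 1.848% of promoters. FOSL2, at chr2:28392851-28392880 on the + strand, holds the AP-1 site in its reverse reading from position 5 after the start, found in 4.949% of promoters. None of the matches overlapped another, and GCGTGGGCG, found in 0.795% of promoters, was in none of the 9 promoters searched. The letters were also not found in the windows of FOS, FOSB, JUNB and the second promoter of ATF3. These matches are a description of the sequence, and binding was not measured.

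The levels of the 10 genes ran from 0.205 to 130.4 FPKM, as the plot by library shows. FPKM counts read fragments relative to the length of the transcript and the depth of the library, so levels can be set side by side between genes. In unirradiated SW1990 the order was IER3, JUN, JUND, JUNB, FOSL1, EGR1, ATF3, FOS, FOSL2 and FOSB, from 27.9 down to 0.740 FPKM. In unirradiated PANC-1 it was IER3, JUN, FOSL1, ATF3, JUND, FOSL2, JUNB, EGR1, FOSB and FOS, from 129.7 down to 0.205 FPKM. Neighbours such as JUNB and FOSL1, at 11.7 and 11.5 FPKM, or EGR1 and ATF3, at 10.3 and 10.1 FPKM, cannot be ordered from 1 library of SW1990. IER3 led in all 4 libraries.

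**Figure D1:**
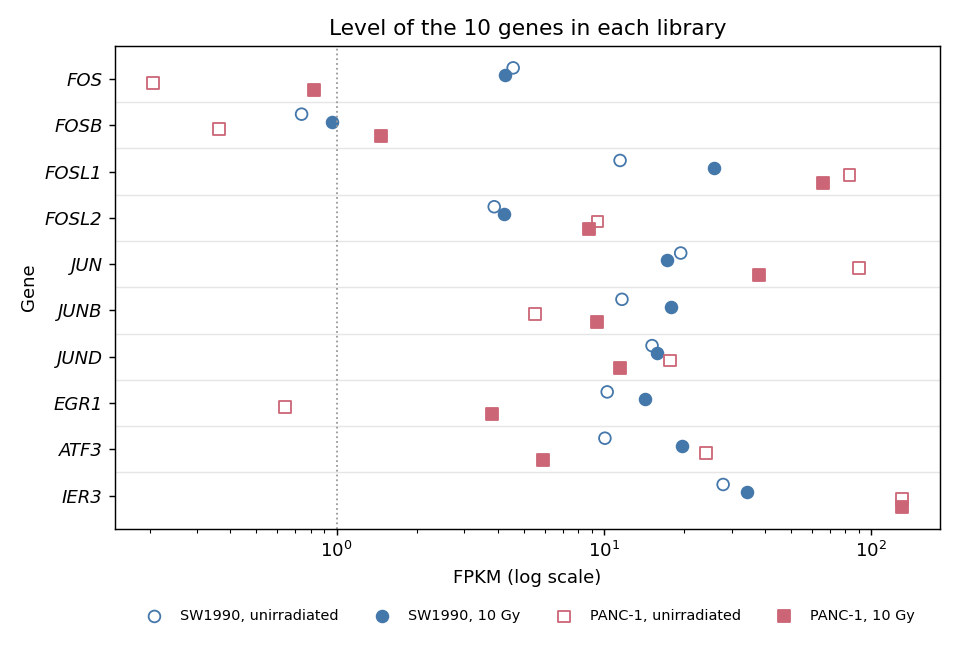
FPKM (log axis) of the 10 genes, with 1 point per library: open symbols are unirradiated and filled symbols irradiated, circles SW1990 and squares PANC-1, and the dotted line marks 1 FPKM. The PANC-1 points lie to the right of both SW1990 points for FOSL1, FOSL2, JUN and IER3 and to the left for FOS, JUNB and EGR1.

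The question put to each line was which genes stood at another level in the irradiated library. A gene was called when the read test between the 2 libraries of a line gave a Benjamini-Hochberg adjusted value under 0.001 and the fold change passed 2, among genes with at least 1 FPKM in either library. Such a test compares the 2 libraries, not the conditions. In SW1990, 650 of 15731 genes were called (4.13%, with 2.26% higher and 1.88% lower after radiation), and in PANC-1, 712 of 15159 (4.7%, with 2.37% higher and 2.32% lower). The PANC-1 split of 360 higher and 352 lower became 456 and 283 when libraries were scaled by their total counts. It was 406 and 263 when fold changes were taken from FPKM, but 332 and 378 with DESeq2's size factors. With a minimum of 5 FPKM it was 121 higher and 197 lower. Of the 10 genes, 9 could be tested in each line. FOSB was under 1 FPKM in both SW1990 libraries and FOS in both PANC-1 libraries.

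In SW1990 only FOSL1 was called, as higher, 1 of the 9 tested genes, against 4.13% of all genes. Of these 9, 7 were higher and 2 lower in the irradiated library, with a median log2 fold change of 0.32. Over all genes tested, 49.3% were higher and the median was -0.01. In PANC-1, 4 of the 9 were called, against 4.7% of all genes, EGR1 and FOSB as higher and ATF3 and JUN as lower. Of the 9, 3 were higher and 6 lower, with a median of -0.25. Over all genes tested in PANC-1, 48.3% were higher and the median was -0.02. EGR1 and FOSB passed the 1 FPKM filter in PANC-1 through the irradiated library alone.

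**Figure D2:**
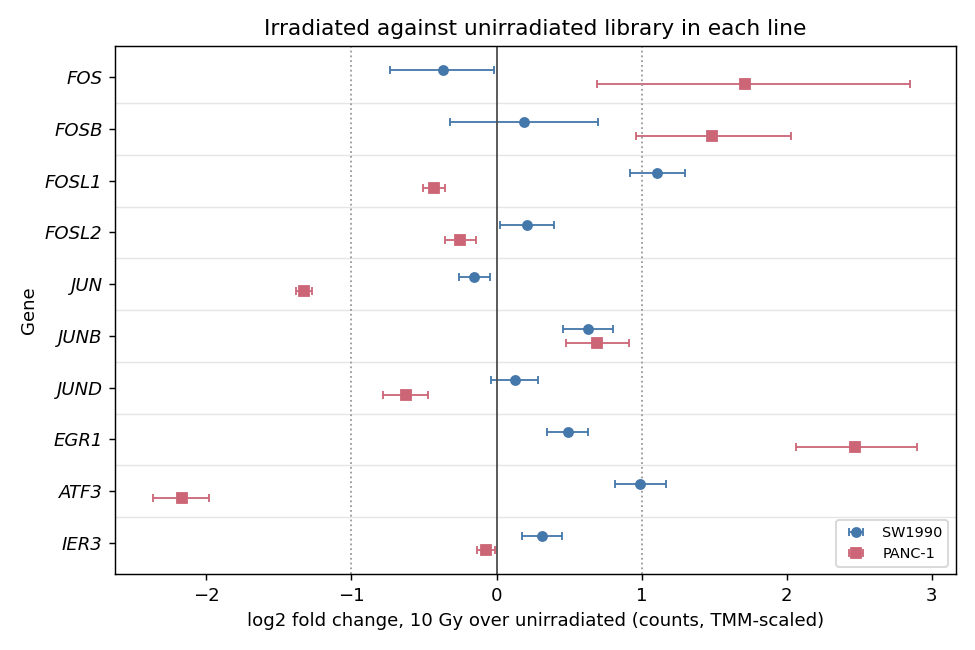
log2 fold change of the irradiated over the unirradiated library (counts scaled by TMM) for each gene, circles for SW1990 and squares for PANC-1, with exact 95% intervals for counting error and dotted lines at a fold of 2. ATF3 and FOSL1 lie right of 0 in SW1990 and left of it in PANC-1, JUNB lies at 0.63 and 0.69, and EGR1 in PANC-1 is farthest right at 2.47.

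FOS proteins bind DNA only with a partner, mostly a JUN protein. FOS itself (chr14:75278774-75282230, + strand), the prototype of an immediate-early gene, was at 152 counts in unirradiated and 118 in irradiated SW1990, and at 11 and 33 in PANC-1. That is 4.57, 4.26, 0.205 and 0.820 FPKM, so both SW1990 libraries lay above both PANC-1 libraries. The log2 fold change with radiation was -0.37 in SW1990, with an interval from -0.73 to -0.02, but -0.10 from FPKM, and was not called. In PANC-1 it was 1.72, from 0.69 to 2.85, at a level too low to be tested.

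FOSB (chr19:45467995-45475179, + strand), a close relative of FOS, was the gene with the lowest mean FPKM of the 10. Its counts were 63 and 72 in unirradiated and irradiated SW1990 and 43 and 110 in PANC-1, or 0.740, 0.959, 0.364 and 1.47 FPKM. The irradiated PANC-1 library was the highest of the 4, and unirradiated PANC-1 the lowest. The log2 fold change was 0.19 in SW1990, with an interval from -0.32 to 0.70 that holds 0, and 1.49 in PANC-1, from 0.96 to 2.03, a 2.80-fold higher level that was called. From FPKM the FOSB values were 0.37 in SW1990 and 2.01 in PANC-1. ERCC1, a DNA repair gene, overlaps FOSB on the other strand and was more abundant, with 600, 571, 2069 and 1566 counts. Its log2 fold change in PANC-1 was -0.27 by counts and -0.02 from FPKM. How reads were assigned by strand is not given in the sources used here, and the part of ERCC1 reads in the FOSB counts was not tested.

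FOSL1 (chr11:65892049-65900573, - strand) encodes FRA1, the FOS protein that lacks a strong activation domain and accumulates in invasive carcinoma cells. Its counts were 337 in unirradiated and 730 in irradiated SW1990, and 3440 and 2331 in PANC-1. On the FPKM scale this was 11.5, 25.9, 82.9 and 66.2, so that the SW1990 level was higher after radiation and the PANC-1 level lower, and the lines did not overlap. The log2 fold change was 1.11 in SW1990, from 0.920 to 1.299, a 2.16-fold higher level that was called. In PANC-1 it was -0.43, from -0.51 to -0.35, and was not called.

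FOSL2 (chr2:28392448-28417312, + strand), which encodes FRA2, moved less. Counts were 441 and 513 in SW1990 and 1683 and 1294 in PANC-1, or 3.89, 4.23, 9.45 and 8.82 FPKM. Both PANC-1 libraries were above both SW1990 libraries, and within a line the libraries were close. The log2 fold changes were 0.21 (0.02 to 0.40) and -0.25 (-0.35 to -0.14), neither of which was called. In PANC-1 the FOSL2 difference was only -0.10 when taken from FPKM. The transcripts AC104695.3, within an intron of FOSL2 on its strand, and FLJ31356, on the other strand, had at most 14 and 2 counts.

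JUN (chr1:58780788-58784327, - strand; 1 exon), the founding AP-1 subunit and a target of its own protein, was the most abundant JUN gene of PANC-1. It had 1507 and 1362 counts in unirradiated and irradiated SW1990, and 9220 and 3360 in PANC-1, or 19.4, 17.2, 90.1 and 37.9 FPKM. The unirradiated PANC-1 library stood far above the other 3, and the irradiated one remained above SW1990. The log2 fold change was -0.15 in SW1990, from -0.26 to -0.05, and was not called. In PANC-1 it was -1.33, from -1.38 to -1.27, a 2.51-fold lower level that was called.

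JUNB (chr19:12791496-12793315, + strand; 1 exon), often an antagonist of JUN, had nearly the same difference in both lines. Its counts were 467 and 726 in SW1990 and 291 and 430 in PANC-1, or 11.7, 17.8, 5.52 and 9.44 FPKM. In each line the irradiated library was the higher, and SW1990 was above PANC-1. The log2 fold changes were 0.63 (0.46 to 0.80) and 0.69 (0.48 to 0.91), or 1.55-fold and 1.62-fold, short of the fold of 2, and the difference between the lines was -0.06, with an interval from -0.34 to 0.21. HOOK2, which overlaps JUNB on the other strand, was at 1107, 885, 107 and 133 counts. It was lower in irradiated SW1990, where JUNB was higher, but in PANC-1 it was higher with JUNB (0.44 on the log2 scale, 0.07 to 0.83), and like JUNB it was lower in PANC-1 than in SW1990. How reads were assigned by strand is not given in the sources used here, and the part of HOOK2 reads in the JUNB counts was not tested.

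JUND (chr19:18279760-18281622, - strand), the JUN gene expressed in resting cells, was lower in irradiated PANC-1 and nearly level in SW1990. Counts of 599 and 657 in SW1990 and 905 and 536 in PANC-1 corresponded to 15.1, 15.8, 17.6 and 11.5 FPKM. The unirradiated PANC-1 library was the highest and the irradiated one the lowest, with both SW1990 libraries between them. The log2 fold changes were 0.13 in SW1990 (-0.04 to 0.29) and -0.63 in PANC-1 (-0.78 to -0.47), a 1.54-fold lower level that was not called.

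EGR1 (chr5:138465490-138469315, + strand), a zinc finger factor known to be induced by SRF, had the widest range of the 10 genes on the log2 scale of scaled counts, 4.26, while by FPKM it and FOS spanned about the same ratio. Counts were 709 in unirradiated and 1001 in irradiated SW1990, and 59 and 299 in PANC-1, or 10.3, 14.2, 0.642 and 3.81 FPKM. Irradiated PANC-1 remained under unirradiated SW1990, and in both lines the irradiated library was the higher. The log2 fold change was 0.49 in SW1990, from 0.35 to 0.63, and was not called. In PANC-1 it was 2.47, from 2.06 to 2.90, a 5.55-fold higher level that was called. SRF itself was at 17.9, 20.2, 19.9 and 16.4 FPKM.

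ATF3 (chr1:212565334-212620777, + strand), a bZIP factor induced by DNA damage, amino acid shortage and endoplasmic reticulum stress, showed the largest opposite difference. It had 403 and 805 counts in SW1990 and 1325 and 269 in PANC-1, or 10.1, 19.6, 24.0 and 5.94 FPKM. The unirradiated PANC-1 library was the highest of the 4 and the irradiated one the lowest. In SW1990 the log2 fold change was 0.99, from 0.82 to 1.17, a 1.99-fold higher level just under the fold of 2. In PANC-1 it was -2.17, from -2.36 to -1.98, a 4.50-fold lower level that was called.

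IER3 (chr6:30743199-30744554, - strand), a stress-inducible protein that modulates survival and ERK signaling and is itself no transcription factor, stood at percentile 97.3 of the genes with at least 1 FPKM in both PANC-1 libraries. Counts of 771 and 964 in SW1990 and 4719 and 4095 in PANC-1 corresponded to 27.9, 34.1, 129.7 and 130.4 FPKM. The PANC-1 libraries were level with each other and both far above SW1990. The log2 fold changes were 0.32 in SW1990 (0.18 to 0.45) and -0.07 in PANC-1 (-0.14 to -0.01), neither called, and the PANC-1 value turned to 0.02 with scaling by total counts and 0.01 from FPKM. The antisense transcript IER3-AS1, which overlaps IER3, was not analysed here.

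The mixture of FOS and JUN transcripts differed between the libraries. The 7 genes summed to 66.8 and 86.0 FPKM in unirradiated and irradiated SW1990, and to 206 and 136 in PANC-1. The FOS genes made up 30.9% and 41.0% of this sum in SW1990, and 45.1% and 56.8% in PANC-1, so that in each line their share was the larger in the irradiated library. Among the FOS genes, FOSL1 took 55.5% and 73.3% in SW1990 and 89.2% and 85.6% in PANC-1. Among the JUN genes, JUN took 41.9% and 33.9% in SW1990, where JUNB and JUND were of like abundance by FPKM, and 79.6% and 64.5% in PANC-1. The shares depend on the correction for transcript length. Among scaled counts, where long transcripts weigh more, FOSL1 took 33.9% and 50.9% of the FOS genes in SW1990 and 66.4% and 61.9% in PANC-1, and FOSL2, with 44.4%, led in unirradiated SW1990. By the same scaled counts, JUN took 58.6% and 49.6% of the JUN genes in SW1990, and 88.5% and 77.7% in PANC-1. In SW1990, JUNB then took 18.15% and 26.4%, and JUND 23.3% and 23.9%. These are shares of mRNA, and protein was not measured.

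**Figure D3:**
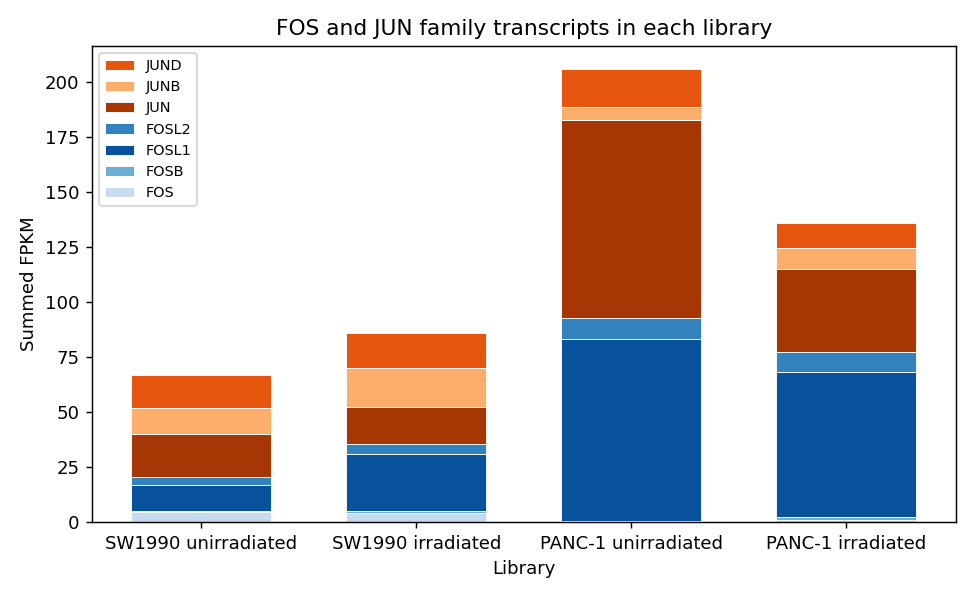
Stacked bars of FPKM for the 4 FOS genes (blue) and the 3 JUN genes (orange) in each library, from 0. FOSL1 and JUN fill most of the PANC-1 bars, whose sums are 206 and 136 FPKM, while the SW1990 bars, at 66.8 and 86.0, are more evenly divided.

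A second comparison set the lines against each other over all 4 libraries, with radiation as a term, in edgeR's quasi-likelihood test with Benjamini-Hochberg adjustment. The 2 libraries of a line differ in treatment and were not separate cultures of 1 condition, so the spread behind these p-values is what radiation as a shared term leaves over, on 1 residual degree of freedom. Over all genes, 7921 of 18180 passed an adjusted p of 0.05 (43.6%, with 22.2% higher and 21.4% lower in PANC-1). Of the 10 genes, 7 passed, 4 higher and 3 lower in PANC-1. As RNA of whole cultures was measured, more cells of a kind and more RNA per cell cannot be told apart.

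FOSL1 had the largest positive difference, 2.40 ± 0.41 on the log2 scale (SE; 5.27-fold; adjusted p = 0.0120). IER3 differed by 2.24 ± 0.17 (adjusted p = 0.00166), JUN by 1.85 ± 0.32 (adjusted p = 0.0120) and FOSL2 by 1.53 ± 0.19 (adjusted p = 0.00514). These 4 genes were higher in PANC-1 in both the unirradiated and the irradiated pair. FOS was lower in PANC-1, with a difference of -2.82 ± 0.62 (7.04-fold; adjusted p = 0.0227), as were EGR1, with -2.70 ± 0.52 (6.50-fold; adjusted p = 0.0161), and JUNB, with -0.83 ± 0.18 (adjusted p = 0.0226). The difference of FOS and EGR1 was the larger in the unirradiated pair, where SW1990 had 22.3 times and 16.0 times the FPKM of PANC-1, against 5.19 and 3.74 times in the irradiated pair. JUND, ATF3 and FOSB had differences of 0.05 ± 0.24, -0.02 ± 0.83 and -0.05 ± 0.46, with adjusted p of 0.896, 0.985 and 0.934. For ATF3 the wide error goes with its opposite differences after radiation in the lines.

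**Figure D4:**
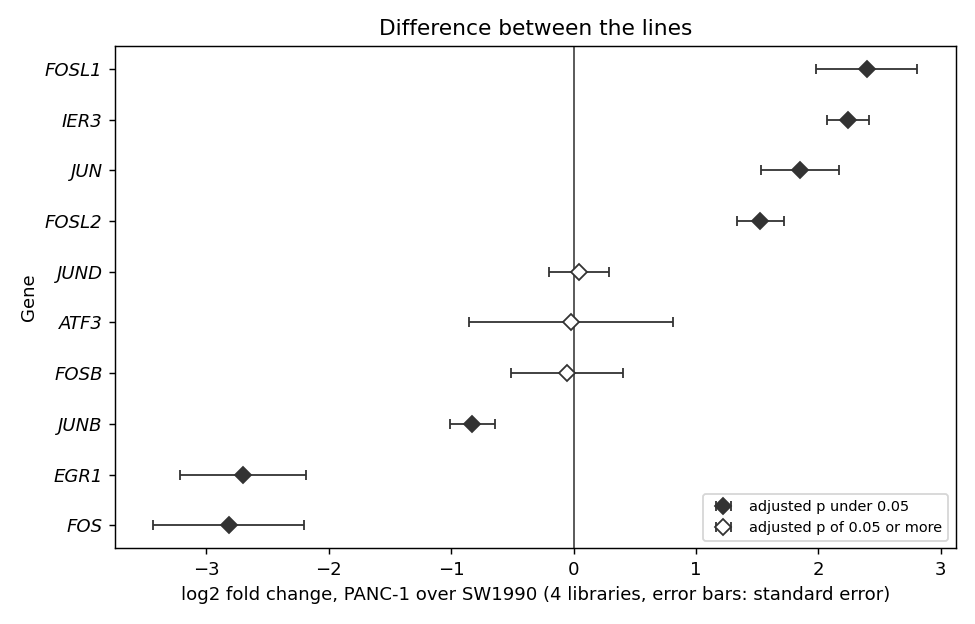
log2 fold change of PANC-1 over SW1990 from the fit over 4 libraries, with standard errors, for the 10 genes in order; filled symbols passed an adjusted p of 0.05. FOSL1, IER3, JUN and FOSL2 lie above 1.5, FOS and EGR1 lie below -2.5, and ATF3 at -0.02 has the widest error.

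The same fit gave a radiation effect shared by both lines. No gene passed (0 of 18180, or 0%), and 833 genes, or 4.58%, had an unadjusted p under 0.05 in edgeR's quasi-likelihood test. DESeq2 passed 39 genes and limma on FPKM passed 1, and none of these were among the 10, though DESeq2 gave no adjusted p for FOS, FOSB and JUNB, which it set aside. JUNB and EGR1 were the only members with an unadjusted p under 0.05 in edgeR. JUNB differed by 0.68 ± 0.18 on the log2 scale (edgeR adjusted p = 0.936, higher in both irradiated libraries). EGR1 differed by 1.40 ± 0.50 (edgeR adjusted p = 0.936, higher in both), and neither holds after correction.

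AP-1 proteins also pair with other bZIP factors, and 21 of 25 such genes could be tested in each line. None was called in SW1990, where 12 were higher and 9 lower with a median log2 fold change of 0.15. In PANC-1, 5 were called, all lower, or 23.8% against 4.7% of all genes, while fold changes from FPKM gave 4 lower and 1 higher, BACH2. It passed the 1 FPKM filter through the irradiated library alone, at 0.738 and 3.10 FPKM, and its log2 fold change of 2.07 from FPKM was 0.85, and not called, by counts. By counts, 18 of 21 had a lower level, with a median of -0.50. NFE2L2, the antioxidant regulator NRF2, had 892 and 1701 counts in SW1990 and 4823 and 1487 in PANC-1. Like ATF3, it was higher after radiation in SW1990 (0.92 on the log2 scale, not called) and lower in PANC-1 (-1.57, called). DDIT3, the stress factor CHOP, was at 121, 139, 1370 and 518 counts, and was 2.42-fold lower in irradiated PANC-1. CEBPB, a factor of inflammation, was at 163, 266, 1394 and 605 counts and was 2.11-fold lower there, a call lost with scaling by total counts (1.98-fold) and with the fold from FPKM (1.995-fold). ATF7 (-1.43) and CEBPG (-1.12) were the other genes called. CREB5 and MAFK, a small MAF protein, were not called in either line, with log2 fold changes of 0.99 and 0.70 in SW1990 and -0.91 and -0.37 in PANC-1. ATF4, the amino acid response factor that activates ATF3 and DDIT3, was the most abundant of the list and was not called, with 185, 174, 218 and 131 FPKM. Between the lines, 11 of 23 fitted genes passed, or 47.8% against 43.6% of all genes, and 10 of them were higher in PANC-1, among them MAFK (2.72 ± 0.30; edgeR adjusted p = 0.00397) and DDIT3 (2.59 ± 0.41; adjusted p = 0.00963).

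Other immediate-early genes were divided as well. In SW1990, 3 of 49 tested were called, all higher, or 6.12% against 4.13% of all genes, and the median log2 fold change was 0.25 with 34 higher and 15 lower. BTG2, an antiproliferative target of p53, was at 51 and 525 counts, a 10.2-fold difference, and passed the 1 FPKM filter through the irradiated library alone, at 0.878 and 8.62 FPKM. In PANC-1 it was at 32 and 12 counts, under the level for testing. PLK2, a kinase of stressed cells, was 3.20-fold higher by counts (419 and 1346) and its log2 fold change was 1.68 by counts and 1.02 by FPKM. IER2, a nuclear immediate-early protein, was 2.20-fold higher in SW1990 by counts (564 and 1247) and 1.90-fold by FPKM, which was not called, and lay at -0.43 in PANC-1, which is close to the pattern of FOSL1. IER5 was not called, at 0.88 in SW1990 and 0.31 in PANC-1.

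In PANC-1, 6 of 45 were called, 2 higher and 4 lower, or 13.3% against 4.7% of all genes, with a median of -0.12. ID3 and ID1, inhibitors of bHLH factors that respond to BMP signaling, were the higher ones, ID3 with 374 and 1137 counts (3.33-fold) and ID1 with 1826 and 3397 (2.04-fold). In SW1990 they lay at -0.35 and -0.22. PPP1R15A, the phosphatase subunit GADD34 of the stress response, was called as lower in PANC-1, with a log2 fold change of -1.27, as were BTG1, DUSP5 and the ERBB inhibitor ERRFI1, with -1.07, -1.02 and -1.04. These last 3 calls were lost with scaling by total counts (-0.98, -0.93 and -0.95) and with fold changes from FPKM (-0.90, -0.94 and -0.92). That of ID1 was lost with DESeq2's size factors, at a 1.995-fold difference. CYR61, a matrix protein gene, was the most abundant of the list, with 13.9, 15.5, 444 and 280 FPKM, and was called in neither line. Of 44 genes tested in both lines, 20 were higher in SW1990 and lower in PANC-1, 7 the reverse, 10 higher in both and 7 lower in both. Over all 13228 genes tested in both lines, 45.2% went in opposite directions. Between the lines, 33 of 53 fitted genes passed, 19 higher and 14 lower in PANC-1, or 62.3% against 43.6% of all genes.

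**Figure D5:**
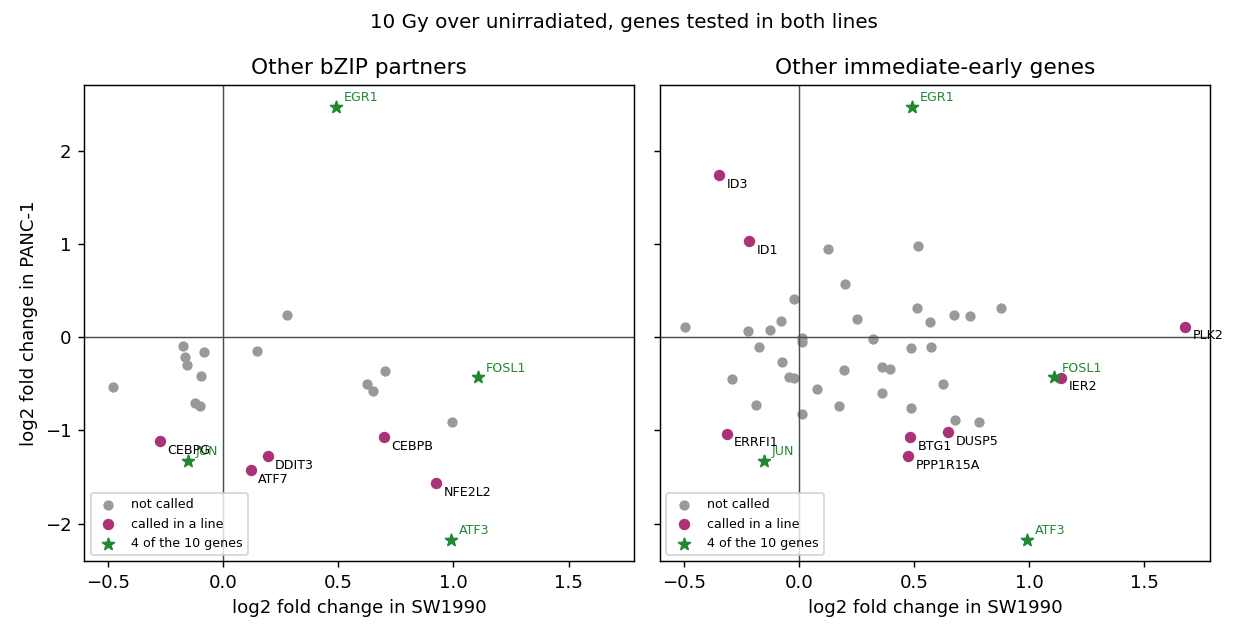
log2 fold change with radiation in SW1990 (x axis) and PANC-1 (y axis) for 19 other bZIP partners (left) and 44 other immediate-early genes (right) tested in both lines; genes called in a line are coloured and named, and stars mark EGR1, FOSL1, JUN and ATF3. In the left panel 9 genes lie at lower right, 9 at lower left, 1 at upper right and none at upper left.

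Among kinases and factors upstream of AP-1, 1 gene was called. None of 33 was called in SW1990 (median -0.06), against 4.13% of all genes, and 1 of 31, or 3.23%, in PANC-1 (median -0.10), against 4.7%. That 1 was MAPK14, the stress kinase p38 alpha, with 1753 and 794 counts (-1.01), but its FPKM of 18.6 and 17.0 gave only -0.13, and the call was also lost with scaling by total counts (-0.92). RPS6KA1, the ERK-activated kinase RSK1, was not called, with -0.37 in SW1990 and 0.67 in PANC-1, nor were MAP2K3, an activator of p38 (0.54 and 0.39), MAPK12 (0.27 and 0.40) or MAP2K2 (0.42 and 0.21). Among the less expressed, MAPK11 lay at 0.49 and -0.23 and MAP2K6 at -0.61 and -0.16. ATF2, an ATF partner of JUN, lay at -0.10 in SW1990 and -0.41 in PANC-1. Between the lines 13 of 33 passed, 8 higher and 5 lower in PANC-1, or 39.4% against 43.6% of all genes.

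Most genes with known AP-1 sites in their promoters stood at different levels in the 2 lines, and 1 gene was called after radiation in each line. In SW1990, 1 of 20 was called, against 4.13% of all genes. It was the chemokine CXCL8, lower with 80 and 33 counts (-1.28, but -0.62 and not called from FPKM). In PANC-1, 1 of 23, or 4.35%, was called, against 4.7%, the ERBB ligand AREG, 2.33-fold lower with 874 and 343 counts, and fold changes from FPKM added VEGFA (-1.05). The medians were 0.17 and -0.05. Between the lines, 21 of 25 passed in edgeR, 14 higher and 7 lower in PANC-1, against 43.6% of all genes. Higher in PANC-1 were PLAU, the urokinase that is a classic AP-1 target, with 435, 546, 23372 and 20731 counts (5.39 ± 0.19; edgeR adjusted p = 0.000804), and the adhesion receptor CD44 (3.78 ± 0.23; adjusted p = 0.00107). ETS1 (7.29 ± 0.28), a factor that binds beside AP-1, and VEGFA (2.03 ± 0.17) were also higher. AREG (-2.05 ± 0.29) and PTGS2 (-4.81 ± 0.81), the cyclooxygenase COX-2, were lower, PTGS2 having 153, 255, 14 and 2 counts. HBEGF did not pass, nor did HMGA1. HBEGF was at 143, 247, 508 and 247 counts, and HMGA1 was at 151, 185, 197 and 193 FPKM.

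The genes whose levels ran most like EGR1 over the 4 libraries, by the root mean square distance of centred log2 values among 12237 genes, were FGF18 (distance 0.21), ZNF791 (0.26) and PAX9 (0.27). FGF18 had 73, 138, 7 and 28 counts, ZNF791 had 492, 511, 49 and 178, and PAX9 had 156, 162, 15 and 51. In each of these, both SW1990 libraries were above both PANC-1 libraries, and unirradiated PANC-1 was the lowest, a pattern for which they were picked. Their log2 fold changes in PANC-1 were 2.13, 1.99 and 1.90 by counts. From FPKM they were 2.22 for FGF18, 1.06 for ZNF791 and only 0.19 for PAX9. Most like IER3 were BCL10 (0.041), BCAR3 (0.046) and POFUT1 (0.054), all higher in PANC-1 than in SW1990 and called in neither line. These distances rest on 4 libraries of 2 lines.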

How the data were processed

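Total RNA of 4 cultures (SW1990 and PANC-1, each unirradiated or irradiated) was sequenced as paired ends, 1 library per condition. The labels say that rRNA was depleted and name an mRNA kit; the strand setting is not given in the sources used here. The submitters' processing notes name CASAVA 1.8, FastQC 0.11.2 and GRCh38. By the study's methods, reads were filtered with Trimmomatic 0.36, aligned with HISAT2 2.0 and quantified with StringTie 1.3.3b, and the authors tested genes with DESeq2 1.12.4. Their tests were not used here. The authors deposited raw read counts per gene and FPKM for each library in 1 table. From it, rows that name no gene (1089 StringTie loci, 0.453% to 0.635% of counts) were left out. Within a line, counts were compared with edgeR 4.0.16 (R 4.3.3), its exact test at dispersion 0 after TMM scaling, among genes with at least 1 FPKM in either library, an FPKM of 0 being set to 0.01. Thresholds were those of the study, an adjusted value under 0.001 and a fold above 2. Fold intervals are Clopper-Pearson intervals of the counts, and a count of 0 allows up to 0.129 to 0.168 CPM. Intervals for the difference of a fold change between the lines are normal approximations from the 4 counts. The lines were compared over 18180 genes with edgeR's quasi-likelihood fit. DESeq2 1.42.0 and limma 3.58.1, on log2(FPKM + 1), were alternatives. Scripts were tested on simulated data. The 10 genes and all lists were chosen with earlier results of these data known. All 10 were named. From each other list, the text names the 4 genes per line with the largest fold change and at least 50 counts in 1 library, and the 3 with the highest mean FPKM, except for some that are not reported here. DUSP5, SRF, BACH2, ZFP36, ZFP36L1 and the overlapping genes were named beyond this rule after their values were seen. Coordinates are those of the table, which for all 10 genes equal GENCODE 29 on GRCh38.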

Additional observations from a re-analysis of the deposited data

Results flagged for a closer look

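6 of the 10 genes differed in opposite directions in the 2 lines, with 1 pair of libraries per line, and this difference between the lines was not tested against replicates. Without IER3, whose PANC-1 value turned to above 0 with scaling by total counts and from FPKM, they were 5. Of the 8 members tested in both lines, 5 went in opposite directions, against 45.2% of 13228 genes tested in both. This became 4 of 8 with scaling by total counts, against 45.99% of all genes, and 4 of 8 from FPKM, against 46.8%, so that nothing particular to the 8 is read from it. Both counting intervals lay away from 0 for 4 of the 8, or 3 without IER3, against 13.6% of 12813 genes with over 3 counts in each library. A counting interval narrows as counts grow, and the counts of the 8 were not matched to those of all genes. Nothing particular to the 8 is therefore read from this share either. The log2 fold change with radiation in SW1990 minus that in PANC-1 was 3.16 for ATF3, with a counting interval from 2.91 to 3.42, the largest of the 6. It was 1.54 for FOSL1 (1.34 to 1.74), 0.75 for JUND (0.53 to 0.97), whose SW1990 interval held 0, 0.46 for FOSL2 (0.25 to 0.67) and 0.39 for IER3 (0.24 to 0.54). For FOS it was -2.09 (-3.13 to -1.04), resting on 11 and 33 counts in PANC-1 and on an SW1990 value that was -0.10 from FPKM. The intervals of these differences are normal approximations from the counts, which hold least well at counts as low as those of FOS.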

How the results depend on the processing

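With a minimum of 5 FPKM, 305 of 10149 genes were called in SW1990 and 318 of 9889 in PANC-1. Of the 10 genes, FOSL1 was called in SW1990, where FOS, FOSB and FOSL2 were under this minimum and not tested. In PANC-1, 2 were called, JUN and ATF3, while FOS, FOSB and EGR1 were under the minimum and not tested. With a fold above 1.5, 1456 of 15731 genes were called in SW1990 and 1776 of 15159 in PANC-1. Of the 10 genes these were 3 in SW1990 (FOSL1, ATF3 and JUNB) and 6 in PANC-1. With the biological coefficient of variation set to 0.4, a spread that these libraries cannot measure, 15 and 10 genes were called and 0 of the 10 in either line. For the radiation effect over 4 libraries, DESeq2 gave 39 genes (11 higher and 28 lower) and limma on FPKM 1, against 0 in edgeR, and in none of these did any of the 10 pass, although DESeq2 gave FOS, FOSB and JUNB no adjusted p. The cause of these differences was not tested beyond the thresholds themselves. The other scalings, the fold from FPKM, no FPKM filter and keeping rows that name no gene left the same 1 and 4 of the 10 genes called in SW1990 and PANC-1, and the same 7 genes passed between the lines in all 4 alternatives. Of the other lists' calls in PANC-1, scaling by total counts left 4 of 5 bZIP partners (without CEBPB) and 3 of 6 immediate-early genes, and the fold from FPKM left the same numbers and added BACH2 (higher) to the bZIP partners and ZFP36L1 (lower) to the immediate-early genes and VEGFA (lower) to the genes with AP-1 sites, as scaling by total counts added ZFP36 (higher). No library could be left out, since a condition had 1 library and 3 libraries leave no residual degrees of freedom. The labels give no replicate numbers to pair libraries by, and cell line was already a term in the fit over 4 libraries.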

Other observations

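Some of the immediate-early genes were, like FOS and EGR1, lower in PANC-1 than in SW1990, and others higher. Those named here were picked after their values were seen. NR4A1, an orphan nuclear receptor, had 351 and 510 counts in unirradiated and irradiated SW1990 and 22 and 51 in PANC-1 (-3.73 ± 0.33 on the log2 scale; edgeR adjusted p = 0.00227). NR4A3 had 325, 299, 4 and 23 counts (-4.77 ± 0.70; edgeR adjusted p = 0.00771) and NR4A2 had 81, 95, 20 and 37 (-1.77 ± 0.42; edgeR adjusted p = 0.0275). EGR3 had 60, 62, 0 and 2 counts. In PANC-1 the irradiated library was the higher for NR4A1, NR4A2 and NR4A3, at levels under 1 FPKM that were not tested.

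The reverse held for the zinc finger factors KLF6 (1.56 on the log2 scale; edgeR adjusted p = 0.00385) and KLF10 (1.59; edgeR adjusted p = 0.00744), for DUSP1, a phosphatase of MAP kinases, with 132, 158, 1908 and 1993 counts (3.65 ± 0.17; edgeR adjusted p = 0.000822), and for CTGF, a matrix protein gene like CYR61, with 577, 474, 4728 and 3164 counts (2.78 ± 0.15; edgeR adjusted p = 0.000975).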
